A study of Mesocricetus auratus with 21 samples.

Results

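Arg2, Crybg1, Pkhd1 and St14 were 4 of the 22285 genes counted in whole testes of golden hamsters (Mesocricetus auratus), and they were chosen by their measured counts, because their transcripts were lower in Mov10l1-/- testes at both 0 and 9 days post partum (d.p.p.). Arg2 encodes the mitochondrial arginase, which converts arginine to ornithine, the starting point of polyamine synthesis. St14 encodes matriptase, a serine protease anchored in the membrane of epithelial cells, where it activates other proteases and is held in check by the inhibitor HAI-1, the product of Spint1. Pkhd1 encodes fibrocystin, a receptor-like protein of the primary cilium of kidney and bile duct epithelium, and Crybg1 (also called AIM1) encodes a protein with beta-gamma crystallin domains.

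The libraries compared Mov10l1+/+ with Mov10l1-/- males at 0, 9, 13 and 21 d.p.p. and in adulthood. MOV10L1 is an RNA helicase of germ cells, needed to make piRNAs, the small RNAs that guide PIWI proteins. The mutant carried a CRISPR-made deletion of exon 20 that descended from 1 founder female, and it was present in all cells of the animal. Each genotype had 2 libraries per age, except for 3 wild-type libraries at 9 d.p.p., which gave 21 in total. The adult wild types were 65 and 23 weeks old and the adult mutants 63 and 53 weeks. The animals received no treatment that the labels name.

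Mov10l1 itself ran from 19.5 to 134 CPM over the 11 wild-type libraries and between 0.129 and 10.8 CPM in the 10 mutant libraries, with every mutant library under every wild-type library of its age. CPM here are counts per 1000000 of a library size scaled by TMM over all 21 libraries, and they are not divided by gene length, so levels are compared between libraries and never between genes. Library totals ran from 3550217 to 77527451 counts, and both extremes were wild types, of 13 and 9 d.p.p. Libraries of 0 and 9 d.p.p. had single-end reads of 75 nt and the later ones paired-end reads of 150 nt, so no test crossed these ages. At 9 d.p.p. the 2 mutant libraries bear the same animal code, so no spread between mutant animals is known there. Both mutant animals of 0 d.p.p. share a code stem that no wild type of that age has, so genotype and stem cannot be told apart there. The Sertoli cell gene Clu was detected in all libraries. Fewer cells of a type and less RNA per cell cannot be told apart in whole testes.

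In new-born testes all 4 genes were lower in both mutant libraries than in either wild-type library, by 2.14-fold to 3.31-fold. These values chose the genes, so they are given without a test. Arg2 was at 4.60 and 5.93 CPM in wild types and at 1.80 and 1.38 CPM in mutants, a ratio of means of 3.31. Pkhd1 was at 6.31 and 4.58 CPM in wild types and at 1.45 and 2.11 CPM in mutants, a ratio of 3.06. Both genes thus stood at about the same ratio. Crybg1 was at 9.27 and 12.3 CPM against 4.71 and 4.98 CPM, and St14 at 8.27 and 9.75 CPM against 4.60 and 3.81 CPM. Their ratios were 2.23 and 2.14, and no mutant library reached a wild-type library.

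At 9 d.p.p. the 4 genes were lower in the mutant again, and their wild-type levels lay below those at birth. The 3 wild types held 1.29, 1.61 and 1.76 CPM of Pkhd1, and the 2 mutant libraries 0.343 and 0.492 CPM. Crybg1 was at 6.77, 5.55 and 5.54 CPM in wild types and at 2.13 and 2.03 CPM in mutants. For both, no mutant library came near the lowest wild type. Arg2 was at 2.22, 2.06 and 2.59 CPM against 0.934 and 0.999 CPM, and St14 at 3.11, 3.10 and 3.13 CPM against 1.29 and 1.49 CPM. The 3 wild-type St14 values were nearly the same. Against the first 2 wild-type libraries, which the study used, wild type over mutant was 3.47 for Pkhd1, 2.96 for Crybg1, 2.23 for St14 and 2.21 for Arg2. Wild-type replicate 3 shares the code stem of the mutant animal, and against it alone the ratios were 4.21, 2.66, 2.25 and 2.68.

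Over all genes, edgeR called 0.931% of 16333 genes lower in the mutant at 0 d.p.p. and 3.19% of 15569 at 9 d.p.p. at an adjusted p below 0.01. The fit of 9 d.p.p. left out wild-type replicate 3. Lower at both were 12 genes, or 0.0787% of the 15256 tested at both ages. Besides the 4 genes these were Mov10l1, the germ cell gene Uchl1, Chd5, Nxf7 and 4 genes without a symbol. Nearest inside the limit were Arg2, at log2 differences of -1.71 and -1.15, and Chd5, at -1.09 and -2.07. Nearest outside were Krt19, a keratin, at -1.08 and -1.98, and Vwf, at -0.75 and -2.34.

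The genes lie on different scaffolds of MesAur1.0. St14 (ENSMAUG00000009907) spans 3040624 to 3085355 on the plus strand of KB708295.1, and Pkhd1 (ENSMAUG00000017819) spans 2902075 to 3337441 on the plus strand of KB708159.1. Crybg1 (ENSMAUG00000017911) spans 22541 to 213207 on the plus strand of KB708165.1, and Arg2 (ENSMAUG00000019136) spans 4787669 to 4810831 on the minus strand of KB708162.1. These spans hold exons and introns, and reads over the exons were counted.

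**Figure D1:**
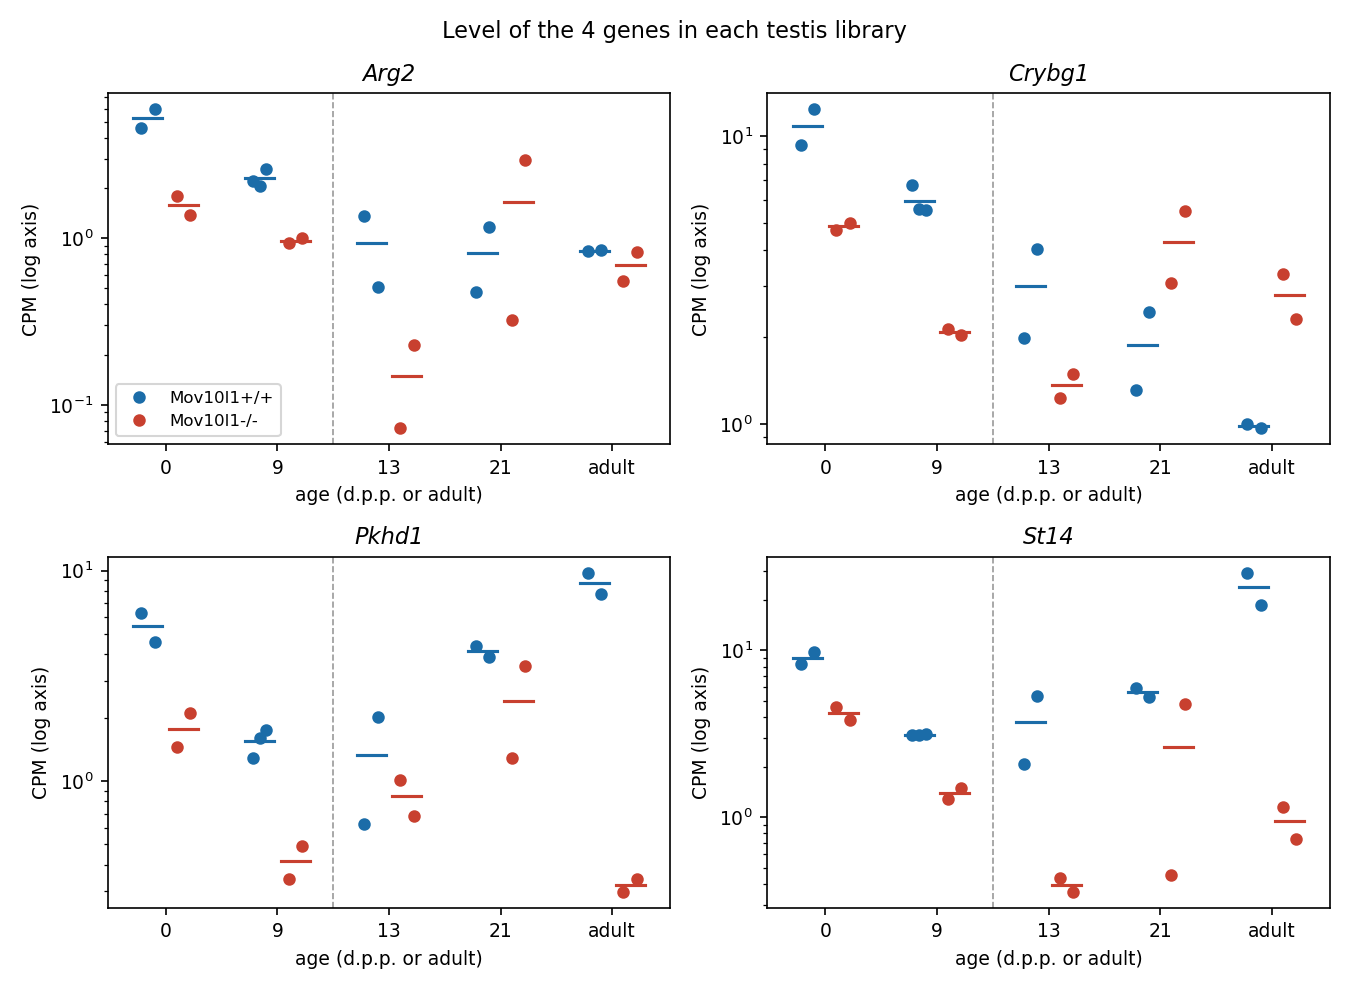
CPM (log axis) of each gene in each library, by age, with wild types in blue, mutants in red and lines at group means. Mutant points lie under wild-type points for all 4 genes at 0 and 9 d.p.p., whereas in adults Pkhd1 and St14 are far apart (for St14, 29.1 and 18.7 CPM against 1.15 and 0.744 CPM), Crybg1 lies the other way and Arg2 is close. The dashed line parts single-end from paired-end libraries.

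The 4 genes followed different courses in wild-type testes. St14 averaged 9.01 ± 1.05 CPM (SD, n = 2) at 0 d.p.p., 3.12 ± 0.0147 (n = 3) at 9 d.p.p., 3.70 ± 2.28 (n = 2) at 13 d.p.p., 5.59 ± 0.513 (n = 2) at 21 d.p.p. and 23.9 ± 7.36 (n = 2) in adults. Pkhd1 averaged 5.44 ± 1.22, 1.55 ± 0.236, 1.32 ± 0.988, 4.14 ± 0.377 and 8.74 ± 1.45 CPM at the same ages, with the same n. On this scale both averaged highest in adults and lowest at 9 or 13 d.p.p., and the libraries of 9 and 13 d.p.p. overlapped. Scaled by library totals, Pkhd1 was instead highest at birth, at 8.12 CPM against 6.98 CPM in adults, while St14 stayed highest in adults, at 19.0 CPM against 13.5 CPM. These averages set single-end beside paired-end libraries and were not tested. Crybg1 averaged 10.8 ± 2.18, 5.96 ± 0.709, 3.01 ± 1.46, 1.88 ± 0.808 and 0.984 ± 0.0271 CPM. Arg2 averaged 5.26 ± 0.939, 2.29 ± 0.272, 0.931 ± 0.601, 0.819 ± 0.485 and 0.843 ± 0.0109 CPM. These were highest at birth, and Arg2 did not differ beyond its spread among the last 3 ages.

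Among the paired-end ages, 0 of the 4 genes passed edgeR's quasi-likelihood test (adjusted p below 0.01) in wild types between 13 and 21 d.p.p. or between 21 d.p.p. and adults. At an unadjusted p below 0.05 there were 1 and 2, and DESeq2 called 0 and 1. St14 was the nearest, with a log2 difference of 2.09 ± 0.65 (SE) from 21 d.p.p. to adults and an edgeR adjusted p of 0.0139. It was called by DESeq2 (adjusted p 0.00217) and with RLE size factors (0.00728). Pkhd1 differed by 1.90 ± 0.60 from 13 to 21 d.p.p. (edgeR adjusted p 0.0387). Over all genes, edgeR called 6.32% lower and 6.4% higher in the first step and 24.1% lower and 23.9% higher in the second. With RLE size factors, the second step gave 2951 genes lower and 4628 higher, in place of 3988 and 3958.

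At 13 d.p.p. none of the 4 genes was called different between genotypes by edgeR, with 1 at an unadjusted p below 0.05 and 1 called by DESeq2, St14 in both cases. Over all genes, edgeR called 0.121% lower and 0% higher. St14 was at 2.09 and 5.31 CPM in wild types (20 and 21 counts) and at 0.433 and 0.357 CPM in mutants (6 and 11 counts). The genotypes did not overlap, and the log2 difference was -3.29 ± 0.70 (SE), with an adjusted p of 0.0754 by edgeR and 0.00355 by DESeq2. Libraries of the same number share a code stem at this age, and the log2 ratios of mutant to wild type within the stems were -2.27 and -3.89. A fit blocked on replicate called St14 by edgeR (adjusted p 9.5e-04), though the labels do not say what the stem marks. Over the alternative fits of all libraries of this age, the genes called in all ran from 4 to 477, against 16 as reported. Crybg1 was at 1.98 and 4.05 CPM against 1.23 and 1.49 CPM, a log2 difference of -1.20 ± 0.58 (edgeR adjusted p 0.536). Its genotypes did not overlap, but the wild types differed more from each other than the lower one did from the mutants. Pkhd1 overlapped, at 0.626 and 2.02 CPM against 1.01 and 0.682 CPM, with a log2 difference of -0.63 ± 0.76 (edgeR adjusted p 0.764). Arg2 was under the filter on low counts, with 13 and 2 counts in wild types and 1 and 7 in mutants, or 1.36 and 0.506 CPM against 0.0721 and 0.227 CPM.

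At 21 d.p.p. the call count was again 0 of 4 by edgeR, 0 at an unadjusted p below 0.05 and 0 by DESeq2, while edgeR called 20.9% of 14834 genes lower and 17.1% higher. Scaled by library totals, the same fit gave 1994 genes lower and 172 higher in place of 3102 and 2535. The 2 mutant libraries stood apart from each other in these genes. St14 was at 5.95 and 5.23 CPM in wild types and at 0.450 and 4.80 CPM in mutant replicates 1 and 2. Arg2 was at 0.476 and 1.16 CPM in wild types and at 0.321 and 2.96 CPM in the mutants, so that replicate 1 was under and replicate 2 above both wild types. Pkhd1 was at 4.41 and 3.87 CPM against 1.29 and 3.51 CPM, and both mutant values stayed below the wild types. Crybg1 went the other way, at 1.31 and 2.45 CPM in wild types and at 3.09 and 5.47 CPM in mutants, without overlap. The log2 differences were -1.22 ± 0.75 for St14, -0.95 ± 0.46 for Pkhd1, 0.78 ± 0.87 for Arg2 and 0.94 ± 0.43 for Crybg1 (SE), with edgeR adjusted p of 0.197, 0.114, 0.471 and 0.0964. Scaled by library totals, mutant replicate 2 overlapped the wild types in St14 and Pkhd1.

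Without mutant replicate 2, the log2 difference of St14 at 21 d.p.p. was -3.82, and Arg2 turned to -1.64. Pkhd1 went to -1.89 and Crybg1 to 0.45. In that fit the lone mutant library is assumed to vary like the wild types. Mutant replicate 1 and wild-type replicate 2 share a code stem, and the log2 ratio of mutant to wild type between these 2 libraries was -3.54 for St14, -1.85 for Arg2, -1.59 for Pkhd1 and 0.33 for Crybg1.

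The comparison of the 2 mutant libraries of 21 d.p.p. was chosen after their values were seen. Replicate 2 over replicate 1 was 10.7 for St14 (164 against 7 counts), 9.20 for Arg2 (101 against 5 counts), 2.73 for Pkhd1 and 1.77 for Crybg1. Of 13687 genes, 0.219% exceeded St14 in the log2 difference, 0.38% exceeded Arg2, 1.10% exceeded Pkhd1 and 2.91% exceeded Crybg1. The median absolute log2 difference over these genes was 0.193.

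Several epithelial markers moved with them in that library. Epcam, an adhesion molecule that matriptase cleaves, was at 1.41 and 13.2 CPM in replicates 1 and 2. The claudin Cldn8 was at 0.129 and 1.70 CPM, against 0 counts in the wild types of that age. The keratins Krt7, Krt8 and Krt18 were 3.70-fold, 3.42-fold and 3.87-fold higher in replicate 2, and Esrp1, an epithelial splicing regulator, 6.01-fold. Krt19, Lsr, Ap1m2 and Itgb4 of the same list were 1.05-fold to 1.28-fold higher. The summed level of the 12 epithelial markers was 229 and 307 CPM in the mutants and 94.7 and 111 CPM in the wild types. Krt19 (111 and 117 CPM) and Lsr (89.8 and 115 CPM) made up most of the mutant sums. Of the mesothelial markers, Msln was 4.08-fold and Upk3b 2.03-fold higher in replicate 2. Lrrn4, Bnc1 and Aldh1a2 of that list were 1.22-fold to 1.28-fold higher. The summed Sertoli markers were at 6357 and 6620 CPM in the 2 mutant libraries. The part of these markers in the values of the 4 genes was not tested.

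**Figure D2:**
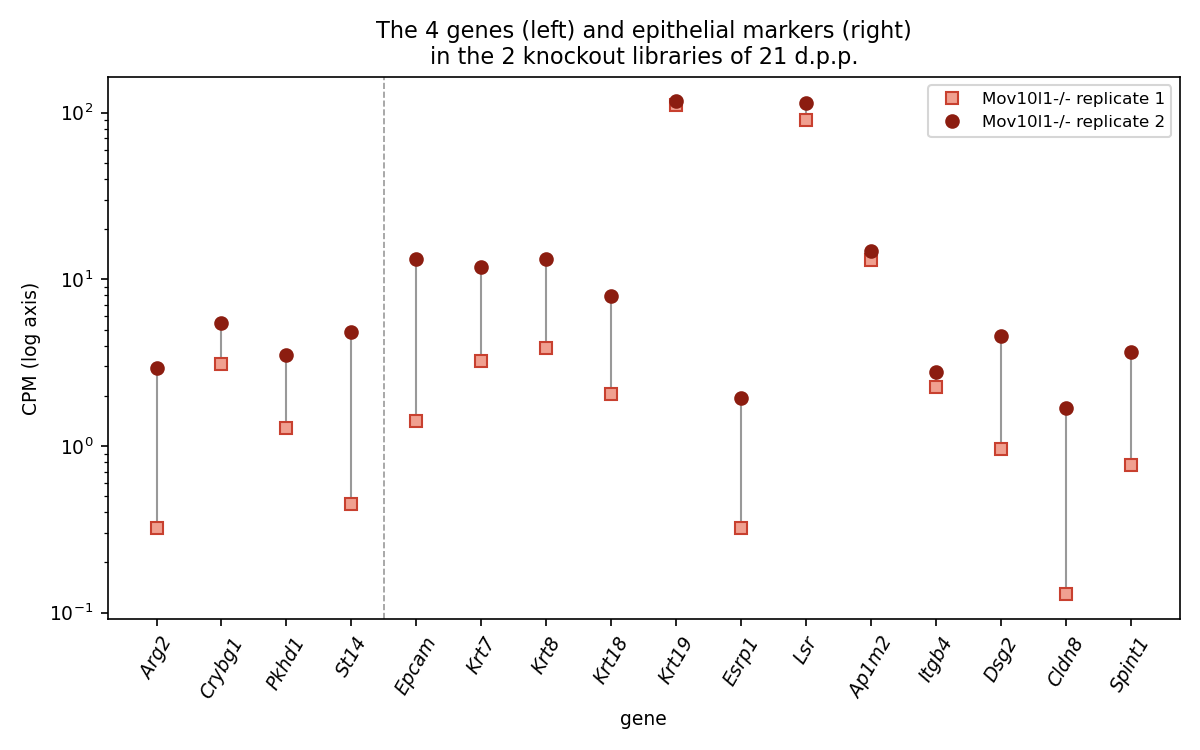
CPM (log axis) of the 4 genes and of 12 epithelial markers in the mutant libraries of 21 d.p.p., with squares for replicate 1 and circles for replicate 2. St14, Arg2, Epcam and Cldn8 are each more than 9-fold apart, and Krt19 lies at nearly the same level in both.

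In adults the 4 genes split. Pkhd1 and St14 were lower in mutants by over 25-fold, Crybg1 was higher and Arg2 was not called, so edgeR called 2 of 4 lower and 1 of 4 higher. Over all 15761 genes tested, 37.2% were called lower and 37.1% higher. Pkhd1 was at 9.76 and 7.72 CPM in wild types and at 0.297 and 0.343 CPM in mutants, a ratio of means of 27.3. The log2 difference was -4.93 ± 0.30 (SE), with an edgeR adjusted p of 5.4e-06. St14 was at 29.1 and 18.7 CPM against 1.15 and 0.744 CPM, a ratio of 25.2 and a log2 difference of -4.86 ± 0.32 (edgeR adjusted p 8.1e-06). In each, the mutant libraries lay far under the lower wild type.

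Crybg1, lower in the mutant at birth, was at 1.003 and 0.964 CPM in adult wild types and at 3.31 and 2.32 CPM in adult mutants. Both mutants were above both wild types, 2.86-fold on average, with a log2 difference of 1.32 ± 0.32 (SE) and an edgeR adjusted p of 0.00622. This call ended at an adjusted p of 0.0498 with DESeq2 and 0.0125 with RLE size factors. It also ended without mutant replicate 1 (0.055), wild-type replicate 1 (0.0232) or wild-type replicate 2 (0.0142). Arg2 was at 0.836 and 0.851 CPM against 0.557 and 0.830 CPM, a log2 difference of -0.44 ± 0.37 (edgeR adjusted p 0.291). The higher mutant library (29 counts) lay just under the lower wild type (25 counts). The median log2 difference of all genes in adults was 0.14 under TMM, -0.06 under RLE and 0.36 under library totals, and the 4 genes kept their directions under each.

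Over the 12 paired-end libraries, the mean of the 3 within-age differences was -2.96 ± 0.45 (SE) for St14 and -2.02 ± 0.34 for Pkhd1. These 2 of 4 genes were called lower, with edgeR adjusted p of 7.7e-05 and 1.7e-04, where 28.6% of all genes were called lower and 30.5% higher. Arg2 averaged -0.66 ± 0.51 and Crybg1 0.49 ± 0.27, with edgeR adjusted p of 0.269 and 0.114.

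**Figure D3:**
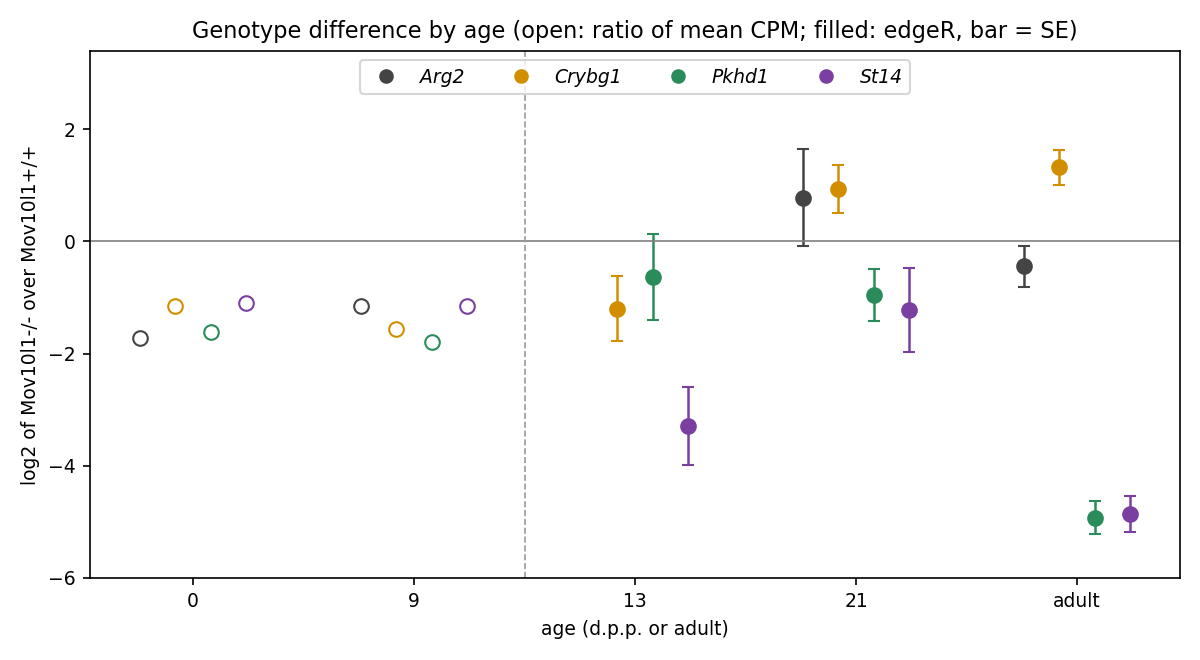
Log2 of mutant over wild type for each gene by age, open for ratios of mean CPM at the ages that chose the genes and filled for edgeR estimates with SE bars. All open points are negative, and in adults Pkhd1 (-4.93) and St14 (-4.86) lie apart from Arg2 (-0.44) and Crybg1 (1.32); Arg2 had too few counts for an estimate at 13 d.p.p.

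The genotype difference itself changed between 21 d.p.p. and adults in 2 of 4 genes by edgeR's interaction test, both toward lower in adult mutants. Over all genes, 14.9% changed that way and 15% the other way. Under library totals these were 1481 and 2502 genes in place of 2462 and 2482. The change was -3.99 ± 0.71 (SE) in Pkhd1 (edgeR adjusted p 9.0e-04) and -3.67 ± 0.95 in St14 (edgeR adjusted p 0.00804). Without mutant replicate 2 of 21 d.p.p., the change in St14 was -1.05 (adjusted p 0.366) and that in Pkhd1 -3.06 (adjusted p 0.00749). The change was -1.25 ± 1.11 in Arg2 and 0.36 ± 0.62 in Crybg1, with edgeR adjusted p of 0.379 and 0.664. Between 13 and 21 d.p.p. the interaction test called 0 of 4 genes with edgeR and 0 with DESeq2, with 2 at an unadjusted p below 0.05, against 3.43% of all genes called lower and 0.61% higher. Crybg1 was the nearest there, at 2.18 ± 0.66 (edgeR adjusted p 0.0527), and Arg2 was at 3.55 ± 1.33 (edgeR adjusted p 0.102).

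Within mutants, Pkhd1 was lower in adults than at 21 d.p.p. with a log2 difference of -2.92 ± 0.55 (edgeR adjusted p 0.00241), the only 1 of 4 genes called in that step, where 5.41% of all genes were called lower and 7.69% higher. The adjusted p was 0.0285 without adult mutant replicate 1, 0.0292 without adult mutant replicate 2 and 0.0501 without mutant replicate 2 of 21 d.p.p. In wild types the same gene stood 1.07 ± 0.46 higher in adults (edgeR adjusted p 0.0569). From 13 to 21 d.p.p. the log2 differences within mutants ran from 1.62 to 3.31, with 0 called by edgeR, 4 at an unadjusted p below 0.05 and 1 called by DESeq2. The edgeR adjusted p lay between 0.0258 and 0.0567. Arg2 had the widest step, at 3.31 ± 0.91. It was at 0.0721 and 0.227 CPM in mutants of 13 d.p.p. and at 0.321 and 2.96 CPM in mutant replicates 1 and 2 of 21 d.p.p. St14 was at 0.433 and 0.357 CPM and then at 0.450 and 4.80 CPM. Most of the step in St14 and Arg2 thus lay in mutant replicate 2. Crybg1 and Pkhd1 were higher in both mutant libraries of 21 d.p.p. than in either of 13 d.p.p. Over all genes, 2.75% were called lower and 2.77% higher in that step, as 568 and 206 genes under library totals in place of 455 and 459.

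The partners of matriptase did not move as 1 group. Of 10 listed genes, 5 had an identifier, and in adults edgeR called 1 lower and 4 higher in mutants. Their median log2 difference was 2.06 against 0.14 over all genes, of which 37.2% were called lower and 37.1% higher. Epcam was at 33.6 and 41.4 CPM in wild types and at 1.78 and 1.43 CPM in mutants, a log2 difference of -4.73 ± 0.21 (SE, edgeR adjusted p 1.4e-06). This was about the size of the St14 difference. The inhibitor gene Spint1 was at 2.17 and 1.36 CPM against 5.24 and 10.9 CPM, a log2 difference of 1.98 ± 0.42. Tmprss13, a related membrane protease, rose by 3.83 ± 0.33, Cdcp1, another matriptase substrate, by 2.67 ± 0.30, and Met, the receptor of hepatocyte growth factor, by 2.06 ± 0.30. At 21 d.p.p. the same list had 0 lower and 2 higher, Tmprss13 at 2.86 and Cdcp1 at 1.81. The median was 1.79 against 0.04 over all genes, of which 20.9% were called lower and 17.1% higher. Without mutant replicate 2 of 21 d.p.p., 1 was higher and the median was 0.25. At 13 d.p.p. 0 of the 5 were called, and Spint1 was at 2.71 and 6.32 CPM in wild types against 0.289 and 0.422 CPM in mutants, a log2 difference of -3.67 ± 0.68 (edgeR adjusted p 0.0493).

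For arginine and polyamine metabolism, 4 of 18 genes had an identifier. In adults 3 of these were higher in mutants and 1 lower, with a median of 1.45 against 0.14 over all genes, of which 37.2% were called lower and 37.1% higher. Smox, the spermine oxidase, was at 7.45 and 7.66 CPM in wild types and at 57.3 and 53.3 CPM in mutants, a log2 difference of 2.69 ± 0.14 (SE). Sms, the spermine synthase, rose by 2.10 ± 0.21 and Oaz1, the antizyme that turns over ornithine decarboxylase, by 0.81 ± 0.14. Satl1, named for its likeness to spermidine acetyltransferase, was at 31.5 and 39.8 CPM in adult wild types and at 0.0371 and 0 CPM in adult mutants. At 21 d.p.p. Smox was the 1 of 3 tested genes called, higher by 1.45 ± 0.21, beside 20.9% of all genes called lower and 17.1% higher. At 13 d.p.p. 0 of 3 were called. Arg2 itself was not called at 21 d.p.p. or in adults.

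Of 13 listed genes of polycystic disease and the primary cilium, 7 had an identifier. In adults 5 were lower in mutants and 2 higher, with a median of -1.78 against 0.14 over all genes, and the shares of all genes were the same 37.2% and 37.1%. Dync2h1, the motor of transport back along the cilium, was at 339 and 354 CPM in wild types and at 42.3 and 48.4 CPM in mutants, a log2 difference of -3.12 ± 0.14 (SE). Tbc1d32 fell by 2.96 on the log2 scale, the kinesin gene Kif3a by 2.41, Evc2 by 1.78 and Tmem231 by 1.75. Pkhd1l1, the paralogue of Pkhd1, went the other way, at 23.5 and 40.7 CPM in wild types and 85.7 and 95.9 CPM in mutants, a log2 difference of 1.32 ± 0.25. Tulp3, an adaptor for receptors of the cilium, rose by 1.52 ± 0.13. At 21 d.p.p. 4 were lower (Kif3a, Dync2h1, Tbc1d32 and Tmem231) and 2 higher (Evc2 and Tulp3), with a median of -1.42 against 0.04, beside 20.9% and 17.1% of all genes. The lower count was 3 and the higher 1 without mutant replicate 2. At 13 d.p.p. 0 of 7 were called, and neither listed paralogue of Crybg1 had an identifier.

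**Figure D4:**
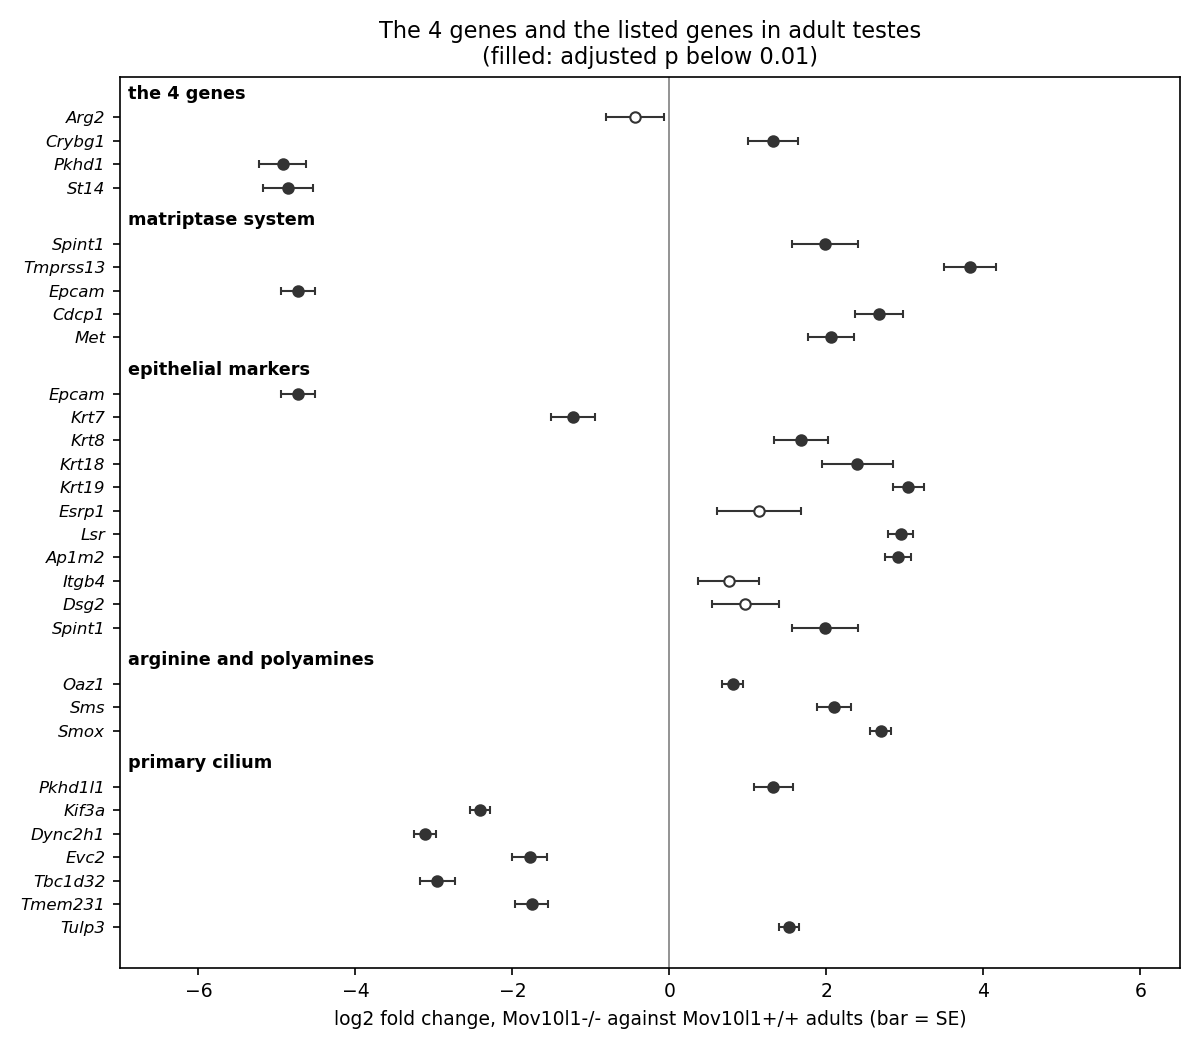
Log2 difference of adult mutants from adult wild types with SE bars for the 4 genes and the listed genes, filled where the edgeR adjusted p was below 0.01. Pkhd1, St14 and Epcam lie between -4.73 and -4.93, while Pkhd1l1 and Spint1 lie to the right of 0; Satl1, with 1 count in the mutants, is not drawn.

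Among epithelial markers, 12 of 14 had an identifier, and 11 of these were tested in adults. Epcam and Krt7 were lower in mutants there, and Krt8, Krt18, Krt19, Lsr, Ap1m2 and Spint1 higher, with a median of 1.68 against 0.14 over all genes. Esrp1 (1.14 ± 0.53), Itgb4 (0.76 ± 0.39) and Dsg2 (0.97 ± 0.43) did not pass. Of all genes in adults, 37.2% were called lower and 37.1% higher. The summed level of the 12 epithelial markers was 85.6 and 80.1 CPM in adult wild types and 397 and 353 CPM in adult mutants. Most of the mutant sums was Krt19 (183 and 153 CPM) and Lsr (143 and 132 CPM). At 21 d.p.p. 0 of these markers were lower and 2 higher, Krt19 at 1.22 and Lsr at 1.32, beside 20.9% and 17.1% of all genes. At 13 d.p.p. 0 of 11 were called. At 9 d.p.p., by an edgeR fit of libraries that chose the 4 genes, 8 of 12 were lower and 1 higher, beside 3.19% of all genes lower. Both mutant libraries of that fit bear 1 animal code, and wild-type replicate 3, which shares its code stem, was left out. The sum of the 12 was 133 and 137 CPM in the wild types of that fit. It was 112 CPM in wild-type replicate 3 and 98.5 and 99.8 CPM in mutants. At 0 d.p.p. 1 was lower and 2 higher, beside 0.931% of all genes lower. The shares of all genes called higher at 0 and 9 d.p.p. were not counted, so the higher counts there cannot be weighed. Mesothelial markers, 6 of 7 with an identifier, had 5 lower and 0 higher at 9 d.p.p., with sums of 23.0 to 37.3 CPM against 8.08 and 9.15 CPM. In adults 1 was lower, Aldh1a2, and 2 were higher, Lrrn4 and Krt19. Symbols came mainly from the study's own lists of changed genes at 0 and 9 d.p.p., so these shares are not independent of the choice.

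Germ cell and Sertoli cell markers were counted in the same fits. Their identifiers too came mainly from the study's lists of changed genes at 0 and 9 d.p.p. Call counts at these ages are thus not independent of that choice, and at 9 d.p.p. both mutant libraries bear 1 animal code. Wild-type replicate 3, which shares the code stem of that animal, was left out of the fit of 9 d.p.p. It lay below both mutant libraries in Zbtb16 (2.79 against 3.89 and 3.43 CPM) and Tex14 (3.28 against 3.99 and 4.62 CPM). The same held for Sycp1 (7.75 against 8.29 and 9.69 CPM). In the other early and meiotic germ cell markers it lay above both. Of all genes, edgeR called 0.931% lower at 0, 3.19% at 9, 0.121% at 13, 20.9% at 21 d.p.p. and 37.2% in adults. Called higher were 0% at 13, 17.1% at 21 d.p.p. and 37.1% in adults. The share called higher was not counted at 0 and 9 d.p.p., so higher counts there cannot be weighed. All 12 early germ cell markers had an identifier. They had 1 lower and 2 higher at 0 d.p.p., 12 lower at 9, 2 lower at 13, 11 lower at 21 d.p.p., and 7 lower and 1 higher in adults. Their sum in adults was 3112 and 3525 CPM in wild types and 92.2 and 88.9 CPM in mutants. Most of the wild-type sum was Mael (1510 and 1829 CPM), Ddx4 (616 and 705 CPM) and Ddx25 (513 and 481 CPM). Sall4 was at 1.84 and 1.36 CPM in adult wild types against 3.79 and 3.43 CPM in mutants. Zbtb16 was at 1.67 and 2.72 against 7.54 and 9.81 CPM, and Uchl1 at 1.47 and 1.475 against 2.12 and 1.80 CPM. Sohlh1 overlapped, at 4.51 and 2.67 against 3.71 and 3.35 CPM. Of 10 meiotic and later markers, 1 was lower at 0 d.p.p., 8 at 9, 1 at 13 and 9 at 21 d.p.p., with 0 higher at these ages. In adults all 10 were lower, at 3942 and 4703 CPM against 70.7 and 60.8 CPM. The sums of these 10 at 0 d.p.p. were 126 and 178 CPM in wild types against 192 and 244 CPM in mutants. The 5 Sertoli markers with an identifier were all higher in adult mutants, at a summed 625 and 848 CPM against 5422 and 5809 CPM. They had 0 lower and 0 higher at 9 and at 13 d.p.p., and 0 lower and 4 higher at 21 d.p.p. At 0 d.p.p. 3 of these 5 were lower, with sums of 1803 and 2077 CPM against 1380 and 1076 CPM. In adults the Leydig cell gene CYP11A1 was higher, as were 4 of 5 tested peritubular markers. So were 1 of 4 endothelial and 2 of 5 macrophage markers, with 0 lower in these lists. With 37.1% of all genes called higher, the endothelial and macrophage counts do not stand out. The part of any of these markers in the values of the 4 genes was not tested.

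Across all 21 libraries, the pattern of Pkhd1 was most like that of St14 (Pearson correlation of log2 CPM 0.88) and that of Arg2 most like that of Crybg1 (0.81), among 1003 genes with a symbol and a mean of at least 1 CPM. The next genes for Pkhd1 were Aldh1a2 (0.87) and Pnldc1 (0.84). St14 was nearest to Pnldc1 (0.91), which encodes the nuclease that trims piRNAs, followed by Necab2 (0.89) and Spire2 (0.88). Crybg1 was nearest to Itgb4 (0.87), Krt18 (0.86) and Prss23 (0.85), and Arg2 after Crybg1 to Rasl10b (0.76) and Dsg2 (0.75). Genes with a symbol came mainly from the study's lists of changed genes. Among all 14402 genes of at least 1 CPM, 3 were nearer to Crybg1 than Itgb4 and 8 nearer than Prss23. For Arg2, 8 were nearer than Dsg2. For the first genes named for Pkhd1, St14 and Arg2 the number was 0. Within the 11 wild-type libraries Pkhd1 and St14 stood at 0.93 and within the 10 mutant libraries at 0.62. Arg2 and St14 stood at -0.14 in wild types and at 0.93 in mutants. Crybg1 and St14 stood at -0.37 and 0.85. These libraries share genotype, age and read layout, so the values describe the set of libraries. Moreover, 9 of the 21 are the libraries of 0 and 9 d.p.p. whose values chose the 4 genes, so likeness among the 4 restates that choice in part.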

How the data were processed

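Total RNA of whole testes was sequenced in 21 libraries after depletion of ribosomal RNA with 1 of 2 kits. Which library had which kit is not given in the sources used here, and the molecule label reads polyA RNA. The authors aligned reads with STAR 2.7.3a to MesAur1.0 and counted them over Ensembl 99 exons with featureCounts 2.0.0, splitting reads with several places or genes into fractions. The authors deposited these estimated counts per gene without normalization. Such splitting leaves genes with near-identical copies or overlapping neighbours uncertain. The deposited counts were rounded to whole numbers. Symbols came from the study's gene tables and covered 1044 of 22285 genes; the 4 genes, the marker lists and the pathway lists were chosen with earlier results of these data known. A gene of the arginine and polyamine list is not reported here and is not in its counts or median.

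Levels are CPM on TMM-scaled library sizes. Tests used edgeR 4.0.16 in R 4.3.3 (TMM, filterByExpr, quasi-likelihood test, two-sided, Benjamini-Hochberg over all genes, called at an adjusted p below 0.01). Each age was fitted alone for the genotype, and the 12 paired-end libraries together for changes with age and interactions. The 4 genes were chosen for lower counts in the mutants at 0 and 9 d.p.p., so no p of these genes is given there. Fits of the same libraries gave the calls of other genes and lists at these ages, without wild-type replicate 3 at 9 d.p.p. The test was tried on simulated data, and no result given here rests on that trial. Named genes were the 4 genes, Mov10l1, the called members of each list (the 6 with the largest change where more were called), up to 4 others in list order, and the 3 genes most like each, by Pearson correlation of log2(CPM + 0.5). Alternatives were DESeq2 1.42.0, RLE size factors, library totals, no filter, at least 10 counts in every library, an adjusted p below 0.05, other sets of libraries, a replicate block and leaving out each library. Totals of 3550217 to 77527451 counts set the precision, and values rest on few counts at 13 d.p.p. Most groups have 2 libraries, so p-values measure the spread between few animals. At 9 d.p.p. both mutant libraries bear 1 animal code, so calls there hold no spread between mutant animals. Replicate numbers were not taken to pair libraries. At 13 d.p.p. each number marks a code stem that both genotypes share, whose meaning the labels do not give. Figures were drawn with matplotlib 3.10.9 in Python 3.11.15 (numpy 2.4.6, pandas 2.3.3).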

Additional observations from a re-analysis of the deposited data

Results flagged for a closer look

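The genotype difference of 2 of the 4 genes differed between adults and 21 d.p.p. by edgeR's interaction test over 12 libraries. For Pkhd1 the change was -3.99 on the log2 scale (edgeR adjusted p 9.0e-04), and it stayed called without any 1 of the 8 libraries concerned, at values from -4.51 to -3.06. For St14 the change was -3.67 (edgeR adjusted p 0.00804). That call was lost without any 1 of 7 of the 8 libraries, the exception being mutant replicate 1 of 21 d.p.p., and without mutant replicate 2 of 21 d.p.p. the value fell to -1.05 (edgeR adjusted p 0.366).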

How the results depend on the processing

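With library totals, each of the 4 genes kept every mutant library below every wild type at both 0 and 9 d.p.p. The later of these ages gave the same with all 3 wild-type libraries and with replicate 3 alone. Fits that leave out 1 library aside, the number called over all genes moved with the setting too. It ran from 554 to 2998 in wild types from 13 to 21 d.p.p. (2107 as reported). From 21 d.p.p. to adults it ran from 5580 to 8123 (7946 as reported). In mutants these steps gave 774 to 1892 (914 as reported) and 1504 to 4297 (2170 as reported). The genotypes in adults gave 9423 to 12618 (11720 as reported). Counts of the 4 genes are thus not to be read alone. The counts of genes called of 4 changed as follows. Without a filter on low counts, 1 was called at 13 d.p.p., 1 at 21 d.p.p., 1 in wild types from 13 to 21 d.p.p., 2 in wild types from 21 d.p.p. to adults, and in mutants 4 and 2 for the same steps. In adults 3 were called as reported, and 2 with DESeq2, RLE size factors, 1 fit of 12 libraries or at least 10 counts in every library. With that 10-count filter 1 of the 4 was tested at 13 d.p.p. and over the 12 libraries, 2 at 21 d.p.p. and 3 in adults, and 0 were called for the mean of 3 ages, for mutants from 21 d.p.p. to adults and for the adult interaction. DESeq2 called 1 at 13 d.p.p., 1 in wild-type adults against 21 d.p.p. and 1 in mutants from 13 to 21 d.p.p. RLE size factors gave 1, and a fit of 4 libraries alone 2, in wild-type adults against 21 d.p.p. At an adjusted p below 0.05, 1 was called in each wild-type step and 3 in mutants from 13 to 21 d.p.p. Leaving out 1 library gave 0 to 1 at 21 d.p.p., 2 to 3 in adults, 0 to 2 in each mutant step and 1 to 2 for the adult interaction.

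The sign of Arg2 in wild-type adults against 21 d.p.p. turned from -0.06 to 0.27 with DESeq2, 0.22 with RLE size factors, 0.18 without the filter and 0.066 with 4 libraries alone. Leaving out 1 library spanned both signs for Arg2 at 21 d.p.p. (-1.64 to 1.59), in wild types (-1.09 to 0.87 and -0.28 to 0.81), in mutant adults against 21 d.p.p. (-2.06 to 1.11) and in the adult interaction (-2.11 to 1.16). It did so for Pkhd1 at 13 d.p.p. (-1.43 to 0.33) and in the interaction of 21 with 13 d.p.p. (-1.23 to 0.51). St14 ran from -2.34 to 1.05 in mutant adults against 21 d.p.p. and from -0.51 to 2.89 in the interaction of 21 with 13 d.p.p. Crybg1 ran from -1.08 to 0.088 in wild types from 13 to 21 d.p.p. and from -0.20 to 0.84 in the adult interaction. The cause was not tested beyond the libraries named. Over all genes, the number called ran from 4 to 477 at 13 d.p.p. (16 as reported) and from 2166 to 7854 at 21 d.p.p. (5637 as reported).

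With the replicate block, 1 of the 4 genes was called at 13 d.p.p., St14 at -3.29, and 0 at 21 d.p.p., 3 in adults and 2 for the mean of 3 ages. Deviations of same-numbered libraries correlated at 0.159 at 13 d.p.p., -0.236 at 21 d.p.p. and 0.103 in adults over 14402 genes, and the labels do not say that numbers pair animals. A block with crossed numbers at 21 d.p.p., chosen after seeing the data, called 1 of 4 genes and 7619 genes in all.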
